A study of Rattus norvegicus with 160 samples.

Results

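The transcripts of the heat shock proteins and molecular chaperones were followed in the amygdala and hippocampus of young and adult rats. A gene was taken as a member when its symbol began with Hsp followed by a family letter or number, with Dnaja, Dnajb or Dnajc, or was one of Cct2 to Cct8; the rule itself uses names only, though it was chosen with earlier results of these data known. This gave 54 genes of 9387 named genes on the array, and 87 protein-coding genes of the rat annotation follow the same rule. The HSP70 family was represented by Hspa1a, Hspa1l, Hspa2, Hspa5, Hspa8, Hspa13 and Hspa14. The HSP110 family held Hspa4 and Hsph1, and the HSP90 family held Hsp90aa1, Hsp90ab1 and Hsp90b1. The small heat shock proteins were Hspb1, Hspb2, Hspb3, Hspb6 and Hspb8, and the mitochondrial chaperonin pair was Hspd1 and Hspe1. The ring-forming CCT chaperonin had Cct2, Cct3, Cct4, Cct5, Cct6a, Cct6b and Cct8l2. The J-domain co-chaperones comprised 4 DNAJA, 6 DNAJB and 16 DNAJC genes, and Hspbp1 and Hspbap1, which bind heat shock proteins, completed the set. Values were present for 51 members in the amygdala and for 53 in the hippocampus: Cct6b, Cct8l2 and Hspb3 had hippocampal values only and Dnajc28 had amygdala values only.

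All animals were male Sprague-Dawley rats of a pair of lines bred for high (HR) or low (LR) locomotor response to a new environment. LR-HR animals were LR pups given to an HR foster dam, LR-LR animals were LR pups given to another LR dam, HR animals were HR pups kept by their own mother and LR animals were LR pups kept by their own mother. Each group was sampled at postnatal days 7 (P07), 14 (P14), 21 (P21) and 75 (Adult), with 5 arrays for each of 32 combinations of region, age and rearing, 160 arrays in all. The protocol gives 5 male rats per phenotype, and no label says whether these came from different litters, so the p-values cover the spread between these 5 arrays a group and litter is not separated from group.

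Molecular chaperones hold unfolded proteins until they reach their final shape. HSP70 proteins bind exposed stretches of a client, J-domain proteins deliver the client and start ATP hydrolysis, HSP110 proteins release the nucleotide, HSP90 proteins finish signalling clients, and chaperonins enclose a client in a chamber. Some members are induced by heat shock factor 1 through heat shock elements in their promoters, and those of the endoplasmic reticulum are induced by the unfolded protein response; many others are made constantly, and in neurons they serve synaptic vesicles, actin and tubulin folding and mitochondria.

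Levels are log2 intensities, and a change is a difference of log2 means ± SE from limma, called when its Benjamini-Hochberg adjusted p over all transcripts of the region was under 0.05. Amygdala arrays had medians of 177.5 to 234.8 intensity units and hippocampal arrays medians of 114 to 130.4, and the regions had been normalized separately, so levels were compared within a region. In the hippocampus a random control sequence averaged 59.3 ± 4.27 (SD over arrays); Hspb3 had a mean at or below it, and Cct6b, Cct8l2, Hspa1l, Dnajc21 and Dnajc5g were at or below it on 45, 36, 28, 24 and 22 of 80 arrays. Of the 5 marker genes fixed for each region, 4 were measured for the amygdala and 1 for the hippocampus, which limits the check of the labelled tissue. Some arrays correlated less well with their own group than the others: all 5 LR-LR arrays and LR replicate 5 of the hippocampus at P21 had median correlations from 0.663 to 0.761 with the rest of their group, against 0.872 in the next lowest array. In tissue pieces such as these, fewer cells of a type and less RNA per cell cannot be told apart.

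The first question was whether the line of the foster dam altered chaperone transcripts in fostered LR pups. In the amygdala no chaperone passed the test at P07, most that passed at P14 and P21 were lower in LR-HR pups, and those that passed in adults were higher in LR-HR animals. At P07 no member was called by limma, with 0.0901% of all transcripts called. An unadjusted p under 0.05 was reached by 10 of 51 members and by 3020 of 22197 transcripts. At P14, 11 of 51 members were lower and 3 were higher in LR-HR pups, against 13.7% and 8.52% of all transcripts. At P21, 19 were lower and 1 was higher, against 15.5% and 6.14%. In adults 12 were higher and none was lower, against 17.2% and 4.55%. The replicate numbers paired these arrays, and with the number as a block 17 were higher and 1 lower. With that block, transcripts called in either direction rose from 4817 to 7082 of 22197. The median change of the members was 0.16, -0.22, -0.46 and 0.37 at the 4 ages, beside 0.08, -0.02, -0.15 and 0.12 for all transcripts. As fitted to the deposited values, the members' share of lower calls was thus above the background at P21. Their share of lower calls at P14 and of higher calls in adults was nearer to it. Without LR-HR replicate 2 of the age, 7 members were lower at P14 and 7 at P21. Transcripts called in either direction then fell from 4943 to 4088 and from 4797 to 3522.

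**Figure D1:**
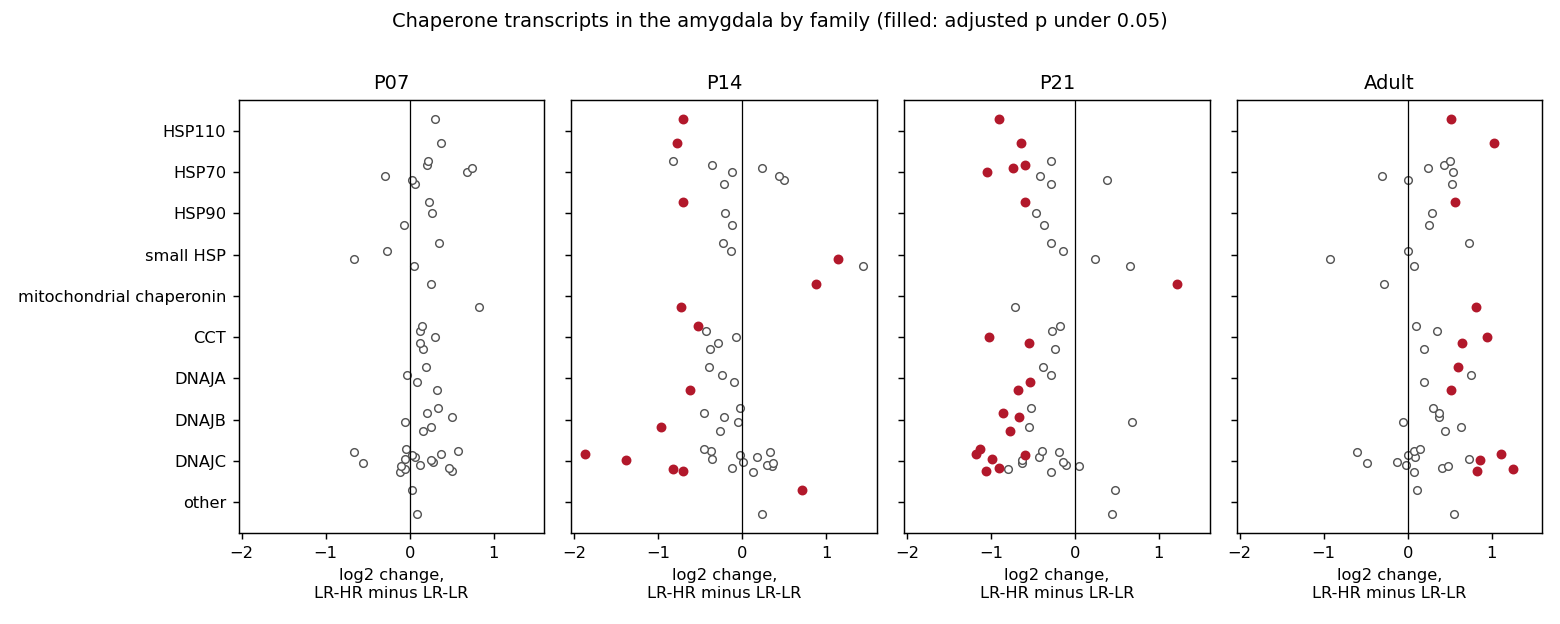
Change of each chaperone transcript in the amygdala, LR-HR minus LR-LR, by family (rows) and age (panels); filled points had an adjusted p under 0.05. The filled points lie mostly left of 0 at P14 and P21 (11 and 19 members lower) and right of 0 in adults (12 members higher).

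By family, at P14 all 5 CCT genes, all 4 DNAJA genes, all 6 DNAJB genes and all 3 HSP90 genes had negative changes, with medians of -0.38, -0.32, -0.25 and -0.21, but only 1 gene of each family was called. At P21 the DNAJB and DNAJC families had medians of -0.61 each, with 3 of 6 and 6 of 16 genes called lower, and the HSP70 family had a median of -0.42 with 3 of 7 called lower. In adults the DNAJA median was 0.56 with 2 of 4 called higher, the CCT median 0.35 with 2 of 5, the DNAJC median 0.12 with 4 of 16, and the HSP70 median 0.43 with none of 7 called. The small heat shock proteins did not share a direction, with medians of 0.51, 0.05 and 0.05 from P14 to adults and 1 call, Hspb2.

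The largest change was that of Dnajc5, which encodes cysteine string protein, a J-domain co-chaperone of synaptic vesicles. At P14 its level was 11.41, 11.50, 11.68, 11.47 and 11.76 on the LR-HR arrays, against 13.35, 13.54, 13.43, 13.30 and 13.55 on the LR-LR arrays. The groups were far apart, and the LR-HR arrays (11.41 to 11.76) overlapped those of LR pups kept by their own mother (11.22 to 11.72). The change was -1.87 ± 0.16, a 3.66-fold lower level (adjusted p = 1.99e-07). At P21 Dnajc5 ran from 11.94 to 12.31 in LR-HR and from 13.01 to 13.46 in LR-LR pups, again without overlap, a change of -1.18 ± 0.16 (adjusted p = 5.09e-05). In adults the order was the opposite: 12.72, 12.95, 13.02, 13.21 and 13.25 in LR-HR animals against 11.60, 11.86, 11.91, 11.81 and 12.44 in LR-LR animals, a change of 1.11 ± 0.18 (adjusted p = 0.000318). At P07 it averaged 12.24 ± 0.17 and 11.87 ± 0.16 in LR-HR and LR-LR pups (SD, n = 5 each), a difference of 0.37 that was not called (limma adjusted p = 0.223).

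Hspe1 and Hspd1 encode the lid and the barrel of the mitochondrial chaperonin, and they did not move together. Hspe1 at P14 was 12.45, 12.54, 12.52, 11.85 and 12.62 in LR-HR pups, against 11.44, 11.44, 11.44, 11.75 and 11.54 in LR-LR pups. All LR-HR arrays were above all LR-LR arrays, the nearest pair being LR-HR replicate 4 and LR-LR replicate 4, and the change was 0.88 ± 0.18 (adjusted p = 0.00146). Hspd1 on the same arrays was 9.16, 9.53, 9.80, 10.06 and 9.69 in LR-HR pups, against 9.80, 10.29, 10.53, 10.58 and 10.71 in LR-LR pups. The ranges overlapped and the change was -0.73 ± 0.26 (adjusted p = 0.0455), a call that was lost without any one of 8 of the 10 arrays, with an adjusted p of up to 0.126 without LR-HR replicate 1. At P21 Hspe1 was again higher in LR-HR pups, 12.07 to 12.79 against 10.94 to 11.47, a change of 1.21 ± 0.19 (adjusted p = 0.000195), while Hspd1 had -0.72 ± 0.27 (adjusted p = 0.0606). In adults Hspd1 was higher, at 9.36 to 9.75 in LR-HR animals and 8.44 to 9.07 in LR-LR animals (0.81 ± 0.18, adjusted p = 0.00318), and Hspe1 differed by -0.28 ± 0.19 (adjusted p = 0.308).

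**Figure D2:**
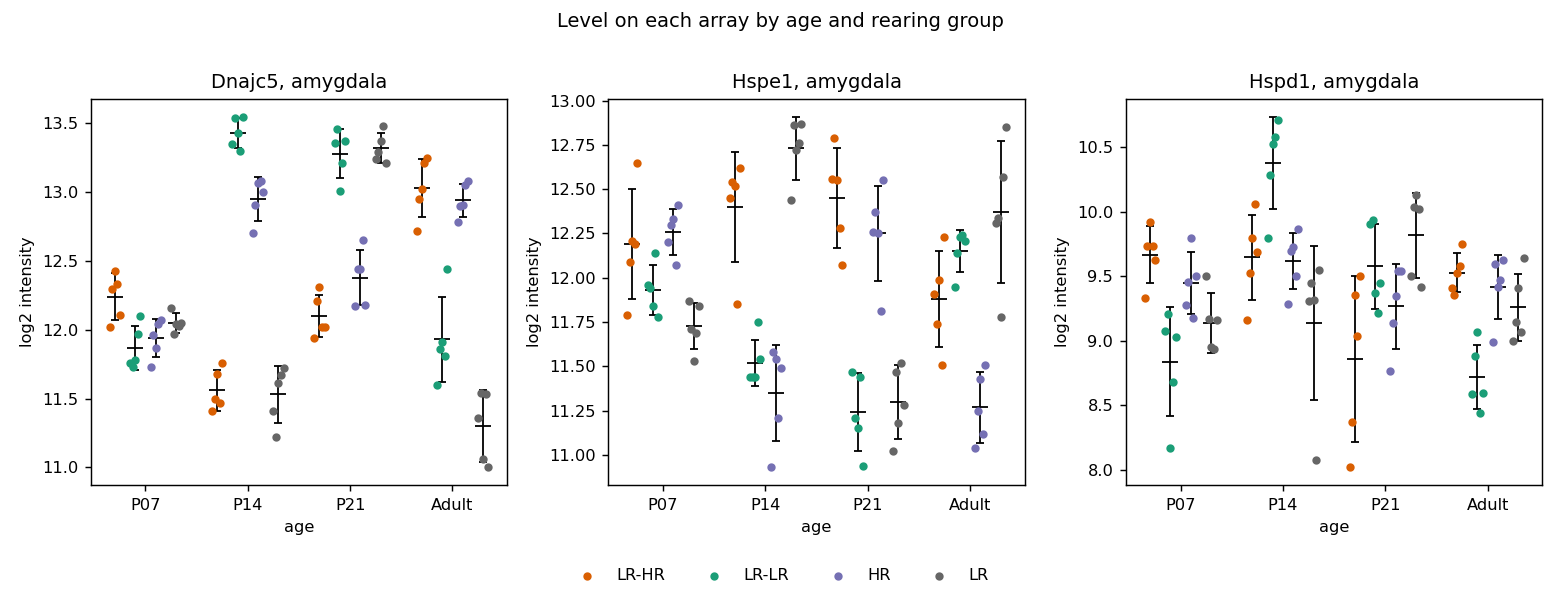
Log2 intensity of Dnajc5, Hspe1 and Hspd1 on each amygdala array by age; within an age the groups are LR-HR, LR-LR, HR and LR from left to right, points are arrays and bars the mean ± SD. Dnajc5 in LR-HR animals lies below LR-LR animals at P14 and P21 and above them in adults, and Hspe1 lies above them at P14 and P21.

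The promoters of this pair are shown because the genes lie head to head on chromosome 9 and share a control region. In the RefSeq windows of build GRCr8, which run from 250 bases before to 50 bases after the start, the Hspd1 window is chr9:64083988-64084287 on the minus strand and the Hspe1 window is chr9:64084077-64084376 on the plus strand. They share 211 bases. Capitals mark matches to a heat shock element of 3 units, GAA then TTC then GAA or TTC then GAA then TTC, with any 2 bases between neighbouring units, which covers both strands and lets matches overlap; the 2 overlapping matches cover the same 18 bases, chr9:64084262-64084279, in both windows.
Hspe1: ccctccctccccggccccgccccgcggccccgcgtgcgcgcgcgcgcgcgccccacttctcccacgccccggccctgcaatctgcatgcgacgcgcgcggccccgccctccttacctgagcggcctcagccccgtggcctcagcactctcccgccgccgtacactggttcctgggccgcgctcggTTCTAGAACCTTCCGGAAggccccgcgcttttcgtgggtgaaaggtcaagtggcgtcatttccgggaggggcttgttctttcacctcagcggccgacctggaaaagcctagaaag
Hspd1: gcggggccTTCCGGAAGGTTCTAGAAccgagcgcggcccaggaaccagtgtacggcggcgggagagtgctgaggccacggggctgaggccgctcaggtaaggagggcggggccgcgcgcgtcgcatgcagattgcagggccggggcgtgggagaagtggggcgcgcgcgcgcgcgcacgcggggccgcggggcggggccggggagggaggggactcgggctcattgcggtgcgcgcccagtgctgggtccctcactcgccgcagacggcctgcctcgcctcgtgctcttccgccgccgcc
The match begins 65 bases before the Hspe1 start and 242 bases before the Hspd1 start.

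Hsph1, an HSP110 nucleotide exchange factor of HSP70, and Hsp90b1, the HSP90 of the endoplasmic reticulum also called GRP94, followed the direction of Dnajc5. At P14 Hsph1 was 11.36, 11.24, 11.59, 11.35 and 11.86 in LR-HR pups, against 11.98, 12.31, 12.30, 11.97 and 12.34 in LR-LR pups, a change of -0.70 ± 0.17 without overlap (adjusted p = 0.00522). It changed by -0.91 ± 0.19 at P21 (adjusted p = 0.00247) and by 0.52 ± 0.16 in adults (adjusted p = 0.0277, lost without any one of 6 arrays, up to 0.0832). Hsp90b1 at P14 was 12.24, 12.33, 12.55, 12.51 and 12.49 in LR-HR pups, against 13.07, 13.09, 13.49, 12.81 and 13.17 in LR-LR pups. The change was -0.70 ± 0.18 without overlap (adjusted p = 0.00583), followed by -0.59 ± 0.20 at P21 (adjusted p = 0.0412, up to 0.126 without LR-HR replicate 1) and 0.56 ± 0.17 in adults (adjusted p = 0.0203). Dnaja1, the main cytosolic J-domain partner of Hspa8, changed by -0.62, -0.68 and 0.52 at P14, P21 and in adults (adjusted p = 0.0129, 0.035 and 0.0363).

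The promoters of these genes carry the 2 elements named for the responses that induce them, and they are shown with those of Hspa8, the constitutive cytosolic HSP70, and Hspa5, the HSP70 of the endoplasmic reticulum also called BiP. Capitals mark the heat shock element above in Hsph1 and Hspa8, and the endoplasmic reticulum stress element, which is CCAAT, any 9 bases and CCACG on either strand, in Hsp90b1 and Hspa5. The windows are chr12:10427118-10427417 (plus strand), chr8:50080264-50080563 (plus strand), chr7:23012244-23012543 (minus strand) and chr3:38452766-38453065 (plus strand).
Hsph1: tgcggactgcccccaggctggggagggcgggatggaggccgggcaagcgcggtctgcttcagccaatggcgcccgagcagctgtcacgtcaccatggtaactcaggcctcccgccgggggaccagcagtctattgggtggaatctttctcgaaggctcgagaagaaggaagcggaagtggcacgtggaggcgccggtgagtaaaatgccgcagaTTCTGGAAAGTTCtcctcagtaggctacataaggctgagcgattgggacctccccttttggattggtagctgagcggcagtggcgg
Hspa8: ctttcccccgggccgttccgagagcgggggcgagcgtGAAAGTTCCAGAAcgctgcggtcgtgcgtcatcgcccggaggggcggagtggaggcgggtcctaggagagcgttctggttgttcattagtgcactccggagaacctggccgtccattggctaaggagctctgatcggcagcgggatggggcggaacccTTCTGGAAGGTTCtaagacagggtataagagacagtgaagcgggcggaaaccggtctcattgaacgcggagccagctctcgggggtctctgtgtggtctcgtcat
Hsp90b1: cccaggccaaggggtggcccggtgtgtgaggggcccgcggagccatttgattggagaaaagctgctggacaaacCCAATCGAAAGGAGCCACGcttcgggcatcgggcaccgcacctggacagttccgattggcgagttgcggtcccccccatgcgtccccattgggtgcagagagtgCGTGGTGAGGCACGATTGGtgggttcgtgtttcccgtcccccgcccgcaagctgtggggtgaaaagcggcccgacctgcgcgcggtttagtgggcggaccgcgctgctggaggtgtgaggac
Hspa5: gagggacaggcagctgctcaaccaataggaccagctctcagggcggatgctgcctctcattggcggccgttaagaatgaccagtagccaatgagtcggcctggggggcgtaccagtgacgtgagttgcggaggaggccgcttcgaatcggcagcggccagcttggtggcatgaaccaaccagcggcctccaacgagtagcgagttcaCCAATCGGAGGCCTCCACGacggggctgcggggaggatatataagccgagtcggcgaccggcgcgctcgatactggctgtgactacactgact
Of 46 members with a RefSeq window, 6 (13%) held the heat shock element, against 267 of all 33469 windows (0.8%): Cct4, Dnaja1, Hspa8, Hspd1, Hspe1 and Hsph1. Hspd1 and Hspe1 count separately although they share the same match. Members are protein-coding with 1 window per gene, and the windows of the background were not limited in these ways. The letters GGGCGG, on either strand, were also more frequent in members (67.4%) than in all windows (33.06%). The endoplasmic reticulum element was in 3 members (6.5%), Dnajc3, Hsp90b1 and Hspa5, against 22 of all windows (0.07%). A match describes letters in the window and is not a bound site. Among the 6 members with a heat shock element the direction at P14 was not shared, since Hspe1 was called higher and Hspd1, Hsph1 and Dnaja1 were called lower.

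Further members with large changes belonged to the DNAJC and small heat shock families. Dnajc27, which joins a J domain to a small GTPase, was 6.89 to 7.70 in LR-HR and 8.25 to 9.11 in LR-LR pups at P14, a change of -1.38 ± 0.21 (adjusted p = 7.13e-05), and 0.86 ± 0.24 in adults (adjusted p = 0.0139). Dnajc8, a J-domain protein of the splicing machinery, was 9.66, 9.79, 9.65, 9.45 and 9.52 in LR-HR pups at P21, against 10.53, 10.48, 11.06, 10.94 and 10.74 in LR-LR pups (-1.13 ± 0.17, adjusted p = 0.000112). Hspb2, a small heat shock protein known from muscle, was 8.37 to 8.93 in LR-HR and 6.86 to 8.05 in LR-LR pups at P14 (1.14 ± 0.40, adjusted p = 0.046, lost without any one of 8 arrays, up to 0.129). Dnajc16 had the largest adult rise: 7.83, 8.25, 8.13, 8.41 and 8.0 in LR-HR animals against 6.52, 7.21, 6.19, 7.07 and 7.32 in LR-LR animals (1.26 ± 0.27, adjusted p = 0.0025). For Dnajc8 at P21 and Dnajc16 in adults the groups did not overlap.

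Several well-known cytosolic chaperones were not called in this comparison. Hspa8 at P14 was 14.19, 14.47, 14.69, 12.20 and 14.72 in LR-HR pups, against 14.92, 14.86, 14.83, 14.85 and 14.96 in LR-LR pups. Every LR-HR array was below every LR-LR array, but LR-HR replicate 4 lay far under the others; the change was -0.83 ± 0.35 (adjusted p = 0.0963) and -0.37 without that array (adjusted p = 0.271). Hsp90aa1 and Hsp90ab1, the inducible and constitutive cytosolic HSP90, changed by -0.12 and -0.21 at P14, -0.37 and -0.46 at P21 and 0.25 and 0.29 in adults, with adjusted p-values from 0.1 to 0.831. Hspa5 was called lower at P21 (-0.60 ± 0.15, adjusted p = 0.00725), with -0.36 at P14 and 0.43 in adults (adjusted p = 0.239 and 0.0505). Cct2 and Cct5, subunits of the actin and tubulin chaperonin, had changes between -0.43 and 0.35 with no call. Hspb1 (HSP27) and Hspb8 (HSP22) were not called at any age. At P14 the changes of the small heat shock genes ran from -0.23 to 1.44, and the largest was not called. The fit shares its variance over the 4 rearing groups, so for Hspb1 at P14 it takes in the widely spread HR arrays, which are outside this comparison.

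The change between ages was tested directly as the foster comparison in adults minus that at P14. In the amygdala 19 members were called higher and 2 lower, against 25.5% and 12.9% of all transcripts, with a median of 0.59 for the members and 0.08 for all transcripts. The highest value was 2.98 ± 0.19 for Dnajc5 (adjusted p = 4.93e-21), and Hspd1 had 1.54 ± 0.32, Hsph1 1.22 ± 0.21, Hsp90b1 1.26 ± 0.22 and Hspa8 1.34 ± 0.35. The 2 lower members were Hspb2 with -2.06 ± 0.57 and Hspe1 with -1.15 ± 0.23. Of the 11 members called lower at P14, 9 were called higher in adults, as were 8 of the 19 called lower at P21; these comparisons use different arrays. Over all transcripts the same shares were 60% of those lower at P14 and 49.6% of those lower at P21. After quantile normalization the split was 15 higher and 4 lower.

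Other genes of the folding pathways were counted from fixed lists. Of 15 measured genes for folding and stress in the endoplasmic reticulum, 4 were lower and 1 higher in LR-HR pups at P14, 7 lower and 1 higher at P21, and 7 higher in adults. Canx, the membrane lectin calnexin, changed by -1.62, -0.80 and 0.82 at these ages, and Hyou1, the large HSP70 relative of that compartment, by -1.20, -1.50 and 1.14. Ddit3, a stress transcription factor also called CHOP, went the other way with 0.88 at P14 and 0.51 at P21. Of 13 measured heat shock factors and cytosolic co-chaperones, 3 were lower at P14, 3 lower at P21 and 2 higher in adults; Stip1, which links HSP70 to HSP90, changed by -0.57 and -1.12 at P14 and P21, and Fkbp5, an HSP90 co-chaperone of the glucocorticoid receptor, by -0.90 at P21. Of 5 measured mitochondrial folding genes, Grpel1 was higher (0.68) and Lonp1 lower (-0.58) at P14, and Lonp1 was lower at P21 (-0.91). Of 4 measured CCT partners, Tcp1, itself a CCT subunit, changed by -0.59 at P14 and 0.65 in adults.

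Markers of composition moved with these groups, and their part in the chaperone changes was not tested. All 10 ribosomal protein genes were measured: 8 were higher in LR-HR pups at P14 and 7 at P21, with medians of 0.90 and 0.81, and 1 was lower in adults (median -0.05). Their summed intensity at P14 ran from 64100 to 79300 in LR-HR and from 33200 to 39400 in LR-LR pups. All 6 striatal projection neuron markers were lower at P14 (median -1.28; summed 9580 to 13500 in LR-HR and 25100 to 34300 in LR-LR pups), 3 were lower at P21 and 5 higher in adults (median 1.44; summed 32100 to 47400 in LR-HR and 12300 to 19500 in LR-LR animals). Neuron markers were lower for 2 of 5 at P14 and at P21 and higher for 3 of 5 in adults. Blood markers were higher for 3 of 6 at P14 and at P21, and choroid plexus markers were higher for 2 of 6 at P14 and lower for 2 of 6 in adults.

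The counts in the amygdala depended on single arrays and on scaling. At P14 the 14 calls became 9 without LR-HR replicate 2 or without LR-LR replicate 3. At P21 the 20 calls became 11 and 8 without LR-HR replicates 1 and 2 and 13 without LR-LR replicate 4, and in adults the 12 calls became 7 without LR-HR replicate 3 or replicate 5. At P07 Hspd1 was called without LR-LR replicate 5. After quantile normalization 4 members were higher and 10 lower at P21, and 5 higher and 1 lower in adults.

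The line comparison asked how HR pups differed from LR pups when each stayed with its own mother. In the amygdala at P07 no member was called by limma (0.131% of all transcripts were called). An unadjusted p under 0.05 was reached by 8 of 51 members and by 2469 of 22197 transcripts. The replicate numbers paired these P07 arrays. With the number as a block no member was called, while transcripts called rose from 29 to 83. At P14, 8 members were higher and 4 lower in HR pups, against 12.8% and 9.98% of all transcripts; at P21, 1 was higher and 13 lower, against 4.03% and 11.6%; in adults 12 were higher and 2 lower, against 20.2% and 7.88%. Medians of the members were 0.24, -0.34 and 0.19, beside 0.04, -0.14 and 0.09 for all transcripts. At P21 the share of lower calls was above the background as fitted to the deposited values. After quantile normalization only 4 members were lower, while transcripts called in either direction fell from 3479 to 2242. Without HR replicate 1 or 2 or any one LR array 5 to 8 members were lower, with 2397 to 3040 transcripts called. These refits were not split by direction over all transcripts, so they give no background for lower calls. At P21 all 7 HSP70 genes had negative changes, 3 of them called, and 3 of 6 DNAJB and 4 of 16 DNAJC genes were called lower.

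Dnajc5 and Hspe1 were called in opposite directions at each of these 3 ages. Dnajc5 at P14 was 12.70, 12.91, 13.07, 13.08 and 13 in HR pups, against 11.41, 11.22, 11.61, 11.67 and 11.72 in LR pups (1.42 ± 0.16, adjusted p = 2.15e-06). At P21 it was 12.17 to 12.65 in HR and 13.21 to 13.48 in LR pups (-0.94 ± 0.16, adjusted p = 0.00124), and in adults 12.78 to 13.08 in HR and 11 to 11.54 in LR animals (1.65 ± 0.18, adjusted p = 2.17e-06). HR was thus above LR at P14, below it at P21 and above it in adults, with no overlap at any of them. Hspe1 at P14 was 10.93, 11.58, 11.54, 11.21 and 11.49 in HR pups, against 12.44, 12.86, 12.72, 12.76 and 12.87 in LR pups (-1.38 ± 0.18, adjusted p = 1.43e-05). Its change was 0.95 ± 0.19 at P21 (adjusted p = 0.00343) and -1.10 ± 0.19 in adults (adjusted p = 0.000211), while Hspd1 was not called, with 0.48, -0.55 and 0.16.

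The levels of the 4 groups at P21 are given for Dnajc5 and Hspe1; LR-HR was not tested against HR. For Dnajc5 LR-HR pups (11.94 to 12.31) overlapped HR pups (12.17 to 12.65), and LR-LR pups (13.01 to 13.46) overlapped LR pups (13.21 to 13.48). For Hspe1 the same groups overlapped, but in the reverse order. LR-HR (12.07 to 12.79) and HR (11.81 to 12.55) lay above LR-LR (10.94 to 11.47) and LR (11.02 to 11.52). Of the 19 members lower in LR-HR than LR-LR pups, 11 were also lower in HR than LR pups, which is 11 of the 13 lower in the line comparison. Over all transcripts 47.2% of those lower in LR-HR pups and 62.7% of those lower in HR pups were lower in both. In adults 6 of the 12 members higher in LR-HR animals were among the 12 higher in HR animals, against 68.0% and 57.7% of all transcripts higher in LR-HR and in HR animals. At P14 no member was called in the same direction in both comparisons, and Dnajc5, Dnajc14 and Hsph1 were lower in LR-HR and higher in HR pups; Dnajc14 was named after its values were seen.

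**Figure D3:**
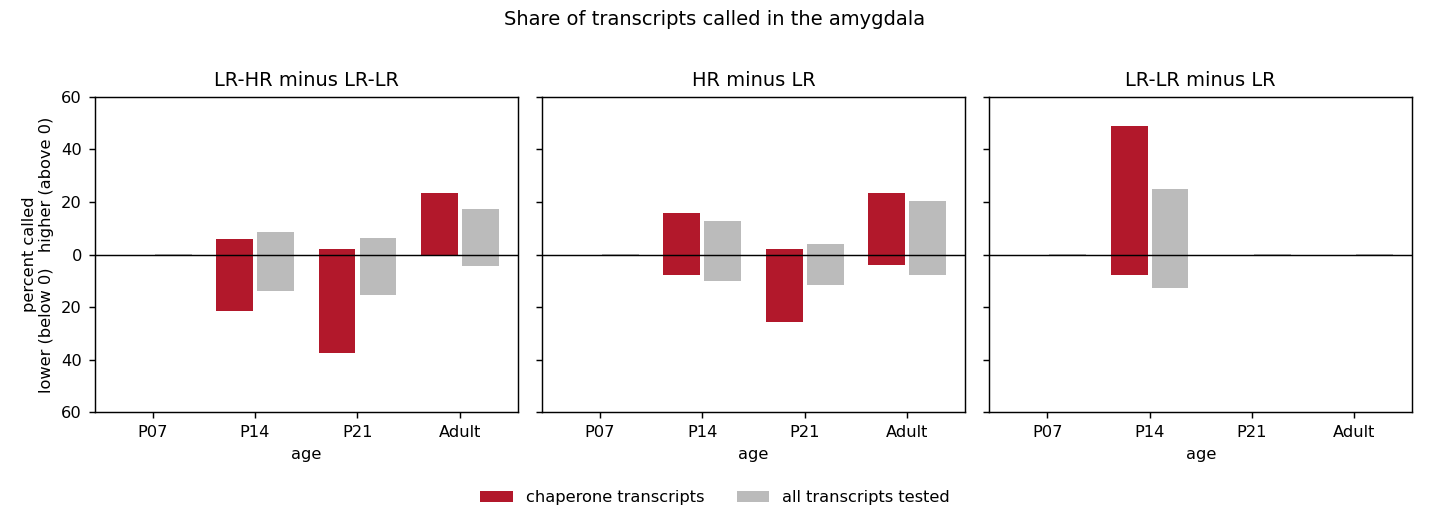
Percent of the 51 chaperone transcripts and of all 22197 amygdala transcripts called higher (above 0) or lower (below 0) at each age in the foster, line and fostering comparisons. The chaperone bar is longest for higher calls at P14 in LR-LR against LR pups, with 25 of 51 members.

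Other members with large line differences were Hspb1, Dnajc16, Dnajc2 and Hspa1l. Hspb1 (HSP27), which binds actin and unfolded proteins, was 6.37, 10.46, 11.12, 8.02 and 12.29 in HR pups at P14, against 7.42, 7.06, 6.27, 7.26 and 7.04 in LR pups. The HR arrays spanned a range far wider than any other group, with replicate 1 inside the LR range and the other 4 above it; the change was 2.64 ± 0.73 (adjusted p = 0.011) and ran from 1.98 to 3.46 with 1 array left out. Hspb8 was higher on average by 1.24 ± 0.40 (adjusted p = 0.0265, 0.0912 without HR replicate 5). On the same arrays all 6 oligodendrocyte markers were higher in HR pups, with a median of 2.39 and a summed intensity of 24600 to 72000 in HR and 4870 to 6870 in LR pups; its part in the small heat shock values was not tested. Dnajc2, a ribosome-bound J-domain protein, was lower at P14 (-1.29 ± 0.23, adjusted p = 0.000335). Hspa1l, an HSP70 best known from testis, changed by 1.14, -1.06 and 1.05 at P14, P21 and in adults (adjusted p = 0.000449, 0.0293 and 0.0431). Dnajc16 changed by -1.02 ± 0.33 at P21 and by 2.13 ± 0.27 in adults, where it was 7.45 to 8.45 in HR and 5.28 to 6.60 in LR animals (adjusted p = 0.0381 and 8.24e-06). Hspb2 was lower in adults (-1.06 ± 0.37, adjusted p = 0.0381).

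The classic inducible gene Hspa1a was called once, in adult HR against LR amygdala. It was named after its values were seen, and its sequence is nearly identical to that of Hspa1b, so the probes may not tell them apart. Its level was 8.13 to 8.82 in HR and 6.76 to 8.30 in LR animals, overlapping, with a change of 0.86 ± 0.30 (adjusted p = 0.0383). Hspe1 and Hspa8 are likewise known for near-identical copies in mammalian genomes, and Dnaja3 was measured by 2 rows, which differed in direction in the foster comparison at P14 (-0.24 and 0.17). The counts use the first row; the second passed the test in HR against LR pups at P14 (0.79, adjusted p = 0.0124) and in adult LR-HR against LR-LR animals (0.81, adjusted p = 0.0433), where the first had 0.21 and 0.76 (adjusted p = 0.534 and 0.0599).

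Composition markers moved here too, and their part was not tested. All 10 ribosomal protein genes were lower in HR pups at P14 (median -0.99), 6 were higher at P21 (median 0.76) and 7 lower in adults (median -0.85). Of the genes for folding in the endoplasmic reticulum, 5 were higher at P14, 4 lower at P21 and 10 of 15 higher in adults. At P21 the 14 calls became 6 and 7 without HR replicates 1 and 2, and 7, 8, 7, 7 and 9 without LR replicates 1 to 5; in adults the 14 calls became 9, 8 and 9 without HR replicates 3, 4 and 5 and 7 without LR replicate 3. At P07 1 member was called without LR replicate 5. After quantile normalization 2 members were higher and 4 lower at P21, and 8 higher and 4 lower in adults.

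The fostering comparison, LR-LR minus LR, asked what fostering to a dam of the same line did; it shares the LR-LR arrays with the foster comparison and the LR arrays with the line comparison, so its values are given beside theirs without any measure of likeness. At P14 in the amygdala 25 of 51 members were higher and 4 lower in LR-LR pups, against 24.9% and 12.7% of all transcripts, with a median of 0.48 for the members and 0.07 for all transcripts; the arrays of both groups did not overlap for 21 of the 29, as for 64.8% of all transcripts called. The members' share of higher calls was above the background as fitted to the deposited values. After quantile normalization 15 of 51 members were higher, while transcripts called in either direction went from 8364 to 7779. The CCT family had 4 of 5 genes higher (median 0.70), DNAJB 5 of 6 (median 0.70), HSP70 4 of 7 (median 0.69), DNAJA 2 of 4 (median 0.63), HSP90 2 of 3 (median 0.49), and both HSP110 genes were higher. Among the panel, Cct2 changed by 0.78 ± 0.20, Cct5 by 0.73 ± 0.26, Dnaja1 by 0.83 ± 0.18, Hspa5 by 0.69 ± 0.21 and Hsp90ab1 by 0.49 ± 0.18, with adjusted p-values of 0.0042, 0.0324, 0.000727, 0.012 and 0.04.

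The members that led this comparison were the ones described above. Dnajc5 was 13.30 to 13.55 in LR-LR and 11.22 to 11.72 in LR pups (1.91 ± 0.16, adjusted p = 4.11e-08), and Dnajc27 8.25 to 9.11 in LR-LR and 7.15 to 7.47 in LR pups (1.29 ± 0.21, adjusted p = 6.51e-05). Hsph1 and Hsp90b1 had 1.22 ± 0.17 and 1.11 ± 0.18 (adjusted p = 1.23e-05 and 4e-05). Hspe1 and Hspd1 again parted: Hspe1 was 11.44 to 11.75 in LR-LR and 12.44 to 12.87 in LR pups (-1.21 ± 0.18, adjusted p = 2.7e-05), and Hspd1 9.80 to 10.71 in LR-LR and 8.08 to 9.55 in LR pups (1.24 ± 0.26, adjusted p = 0.000655). Hspb2 was lower, with a change of -1.07 ± 0.40 (adjusted p = 0.042, up to 0.15 without LR replicate 1). Hspa8 was 14.83 to 14.96 in LR-LR and 13.54 to 14.25 in LR pups (1.05 ± 0.35, adjusted p = 0.0217).

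The 4 groups at P14 therefore had LR-LR pups at the top for Dnajc5, Hsph1, Hsp90b1, Dnajc27 and Hspd1. Of the ribosomal protein genes 8 were lower (median -0.94), all 6 striatal markers higher (median 1.45) and 11 of 15 endoplasmic reticulum folding genes higher with 1 lower in LR-LR pups, and the part of these markers was not tested. Quantile normalization left 15 members higher and 5 lower. At P07, P21 and in adults no member was called by limma in the amygdala, with 0.0586%, 0.0135% and 0.658% of all transcripts called. An unadjusted p under 0.05 was reached by 4, 2 and 7 of 51 members and by 1894, 702 and 3022 of 22197 transcripts. In the P07 and adult comparisons the replicate numbers paired the arrays. With the number as a block no member was called at P07, while transcripts called rose from 13 to 40. In adults 1 member was called with it, while transcripts called rose from 146 to 387.

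In the hippocampus few chaperones differed between rearing groups, as few transcripts did. In the foster comparison 3 members were higher and none lower in LR-HR pups at P07, against 2.22% and 0.687% of all transcripts. With the replicate number as a block 7 members were called, while transcripts called rose from 754 to 2263 of 25897. At P14 none was higher and 1 lower, against 0.0734% and 0.51%, and at P21 1 was higher and none lower, against 0.9% and 0.0695%. In adults no member was called by limma, and 0.00386% of all transcripts were called. An unadjusted p under 0.05 was reached by 4 of 53 members and by 1970 of 25897 transcripts. The replicate numbers paired these adult arrays. With the number as a block no member was called, while transcripts called rose from 1 to 4. The adult comparison minus that at P14 gave no call for any member, with 0.0% of all transcripts called. No member had an unadjusted p under 0.05 there, against 1069 of 25897 transcripts.

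Dnajc5 was the member called at both P07 and P14 in the hippocampus, in opposite directions. At P07 it was 11.49, 10.92, 11.56, 11.39 and 11.62 in LR-HR pups, against 9.58, 9.11, 9.84, 10.03 and 10.48 in LR-LR pups (1.59 ± 0.24, adjusted p = 0.000522). At P14 it was 10.15, 9.71, 10.37, 9.88 and 10.66 in LR-HR pups, against 11.26, 11.37, 11.39, 11.28 and 11.57 in LR-LR pups (-1.22 ± 0.21, adjusted p = 0.00895). The LR-LR arrays lay below all LR-HR, HR and LR arrays at P07 and above all of them at P14. At P07 Hsp90b1 was also higher, 11.06 to 12.17 in LR-HR and 9.82 to 11.12 in LR-LR pups (1.25 ± 0.32, adjusted p = 0.0324, up to 0.107 without LR-HR replicate 5), as was Dnajc7 (1.19 ± 0.31, adjusted p = 0.0325), an HSP70 and HSP90 co-chaperone that was named after its values were seen. The 3 calls at P07 became 1 without LR-HR replicate 3 or 5 or any one of LR-LR replicates 1 to 4, and 6 without LR-LR replicate 5.

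Hspa8 at P21 in the hippocampus rested on the arrays that stood apart. It was 12.79, 13.89, 13.30, 13.19 and 13.70 in LR-HR pups, against 9.04, 7.95, 9.11, 13.60 and 12.90 in LR-LR pups. LR-LR replicates 1 to 3 were far below every other array of the region and age, while replicates 4 and 5 lay among the LR-HR arrays. The change was 2.85 ± 0.70 (adjusted p = 0.0457); it was not called after quantile normalization (adjusted p = 0.0534), and the count of members called was 0 without any one LR-HR array or any one of LR-LR replicates 1 to 3, and 13 and 10 without LR-LR replicates 4 and 5. Hsph1, Hspd1, Dnaja1, Cct5 and Hspa5 had changes of 1.98, 1.57, 1.43, 1.23 and 1.29 with adjusted p-values from 0.0729 to 0.124.

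**Figure D4:**
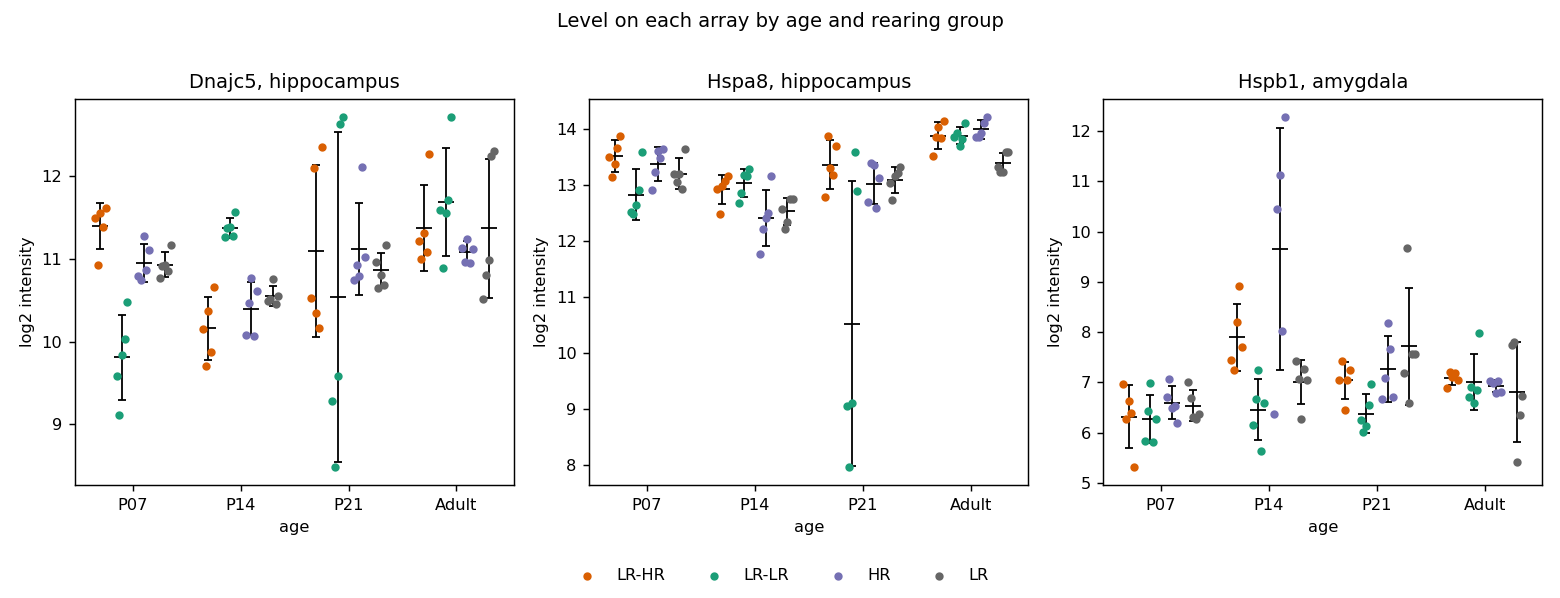
Log2 intensity on each array of Dnajc5 and Hspa8 in the hippocampus and of Hspb1 in the amygdala by age; within an age the groups are LR-HR, LR-LR, HR and LR from left to right, points are arrays and bars the mean ± SD. LR-LR arrays at P21 split into a low and a high set for Hspa8 (7.95 to 9.11 and 12.90 to 13.60), and the HR arrays at P14 span 6.37 to 12.29 for Hspb1.

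Line and fostering differences in the hippocampus were also few. Hspa5 (BiP) was lower in HR pups at P14, at 9.70, 10, 10.28, 9.93 and 11 against 11.31, 11.05, 11.05, 11.20 and 11.24 in LR pups. The groups did not overlap, with HR replicate 5 near the LR arrays, and the change was -0.99 ± 0.25 (adjusted p = 0.0272). It was the 1 member called, against 1.96% of all transcripts higher and 0.807% lower; the count was 0 without HR replicate 1, 2 or 4 or LR replicate 1, 4 or 5, and 4 without HR replicate 5. At P07, P21 and in adults limma called no member, with 0.147%, 0.0% and 0.0502% of all transcripts called. An unadjusted p under 0.05 was reached by 7, 6 and 3 of 53 members and by 2717, 1763 and 1793 of 25897 transcripts.

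In LR-LR against LR hippocampus 1 member was higher and 1 lower at P07 (1.9% and 0.683% of all transcripts) and again at P14 (1.1% and 0.436%), and the same pair was involved. The replicate numbers paired the arrays at both ages. With the number as a block 2 members were again called at each age. Transcripts called then rose from 670 to 1663 at P07 and from 397 to 1218 at P14. Dnajc4, a J-domain protein, was 8.88 to 9.83 in LR-LR and 7.39 to 8.81 in LR pups at P07 (1.30 ± 0.28, adjusted p = 0.00589), and 8.47 to 8.86 in LR-LR and 9.44 to 10.01 in LR pups at P14 (-0.97 ± 0.24, adjusted p = 0.0395). Dnajc5 changed by -1.12 ± 0.24 at P07 (adjusted p = 0.00666) and by 0.82 ± 0.21 at P14 (adjusted p = 0.0467). Both P14 calls were lost without any one of the 10 arrays. At P21 and in adults limma called no member, with 0.0116% and 0.0% of all transcripts called. An unadjusted p under 0.05 was reached by 10 and 2 of 53 members and by 2536 and 1626 of 25897 transcripts. At P21 Hspa8 was called without LR-LR replicate 4 or 5 (adjusted p = 0.0138 and 0.0321).

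Steps between ages were averaged over the rearing groups. In the amygdala 19 members rose and 6 fell at P14 against P07 (14.9% and 12.7% of all transcripts higher and lower), 8 rose and 4 fell at P21 against P14 (9.44% and 5.83%), and 3 rose and 4 fell in adults against P21 (8.01% and 11.7%). In the hippocampus 1 rose and 4 fell at P14 against P07 (7.44% and 4.71%), 9 rose and 2 fell at P21 against P14 (8.65% and 11.5%), and 10 rose and 1 fell in adults against P21 (10.2% and 4.99%). As fitted to the deposited values, the members' share of higher calls was above the background at the first and second amygdala steps and both later hippocampal steps. After quantile normalization only 5 of 53 were higher at the last hippocampal step. There transcripts called in either direction fell from 3924 to 3286, and their share called higher was not counted.

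**Figure D5:**
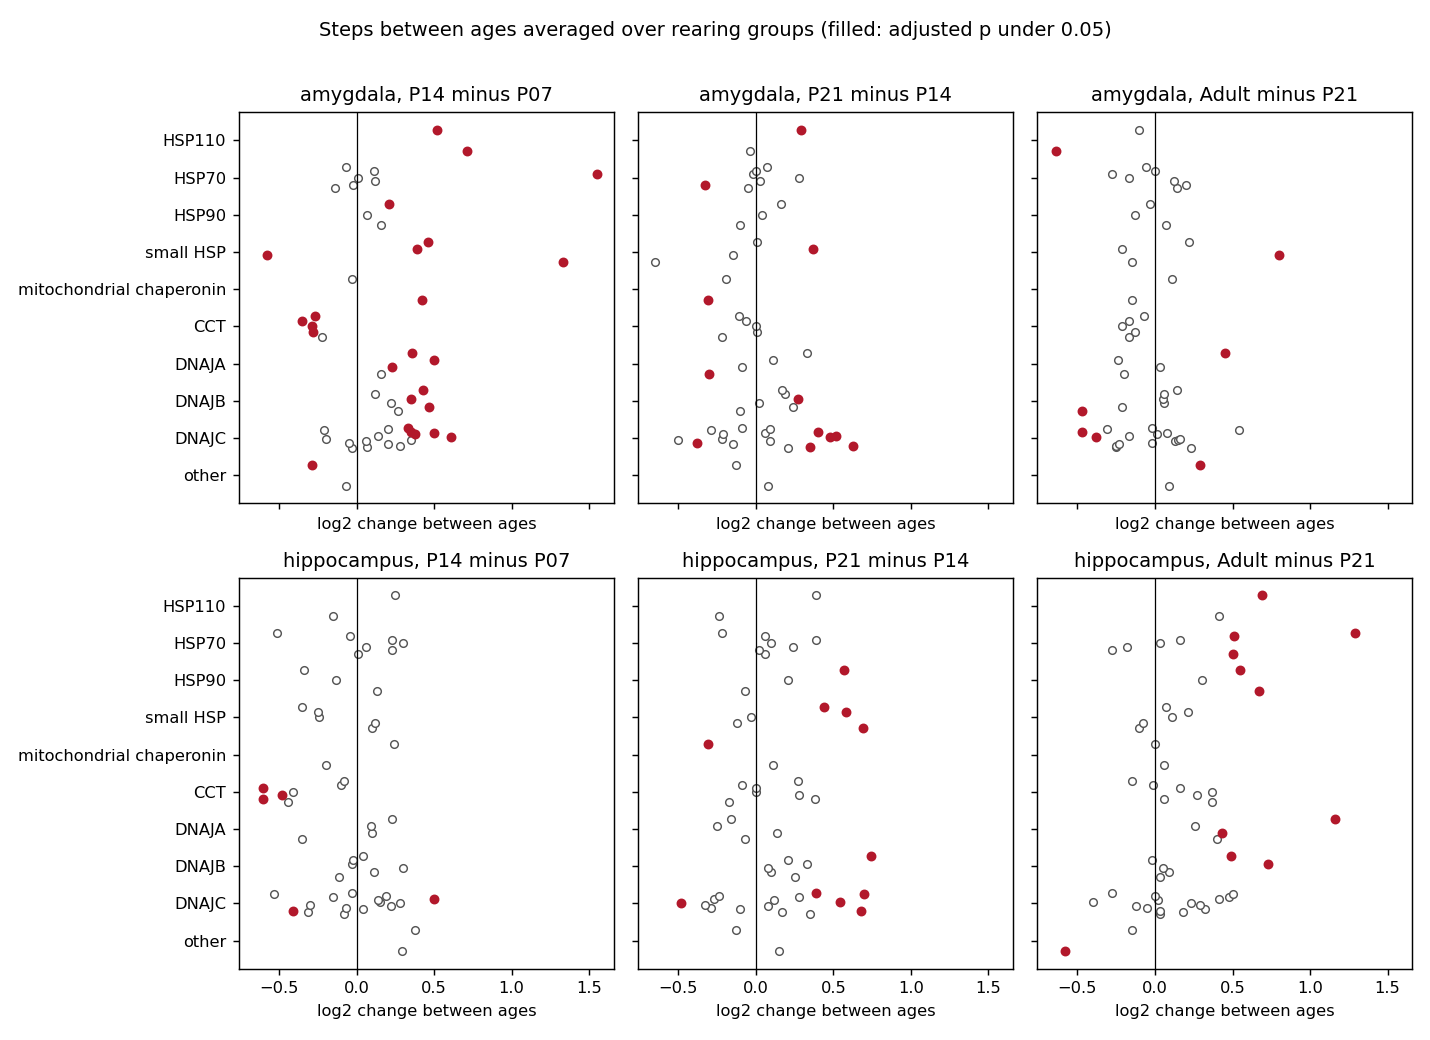
Change of each chaperone transcript between successive ages, averaged over rearing groups, by family (rows), region (upper and lower panels) and step (columns); filled points had an adjusted p under 0.05. In the first step the CCT points lie left of 0 in both regions, with 4 of 5 genes called lower in the amygdala and 3 of 7 in the hippocampus.

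The CCT chaperonin was the family that fell early in both regions. At P14 against P07 4 of 5 CCT genes fell in the amygdala (median -0.28) and 3 of 7 in the hippocampus (median -0.44); Cct3, Cct4 and Cct6a fell in both. Cct5 averaged 10.67 at P14 and 11.02 at P07 in the amygdala (-0.35 ± 0.10, adjusted p = 0.00677). Cct3 and Cct6a fell by 0.60 each in the hippocampus (SE 0.16 and 0.13, adjusted p = 0.00526 and 0.000677). No CCT gene was called at a later step in either region.

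The members called higher at the first amygdala step were spread over most families other than CCT: 11 of the 19 were J-domain genes, 3 were small heat shock genes and 2 were HSP110 genes, with Hspa2, Hsp90b1 and Hspd1 as the single calls of HSP70, HSP90 and the mitochondrial chaperonin. Hspa2, an HSP70 known from testis and also made in brain, ran from 8.70 to 11.71 (median 9.53) over the 20 arrays at P14 and from 6.80 to 9.04 (median 8.12) at P07, a change of 1.55 ± 0.15 (adjusted p = 3.09e-14). Hspb1 changed by 1.33 ± 0.25 (adjusted p = 2.26e-05), a value that includes the wide HR arrays at P14. Both HSP110 genes rose, Hspa4 by 0.71 ± 0.12 and Hsph1 by 0.52 ± 0.07 (adjusted p = 1.69e-06 and 1.84e-08), with 3 of 4 DNAJA, 3 of 6 DNAJB and 5 of 16 DNAJC genes. Hspb2 fell by 0.58 (SE 0.20, adjusted p = 0.0231) and rose in adults against P21 by 0.80 ± 0.20 (adjusted p = 0.00218). All 6 oligodendrocyte markers rose at both amygdala steps up to P21 (medians 2.37 and 1.95) and all 10 ribosomal genes fell at the first (median -0.60); their part was not tested.

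Between P14 and P21 the leading changes were those of J-domain genes. In the amygdala Dnajc16, of the endoplasmic reticulum, and Dnajc28 rose by 0.63 ± 0.14 and 0.52 ± 0.16 (adjusted p = 0.000399 and 0.0209), and Dnajc2 and Hspa14 fell by 0.38 and 0.33 (adjusted p = 0.0209 and 0.0248). In the hippocampus Dnajb9, a J-domain protein of the endoplasmic reticulum that binds BiP, rose by 0.74 ± 0.17 and Dnajc7 by 0.70 ± 0.19 (adjusted p = 0.000874 and 0.00436), and 3 of 5 small heat shock genes rose, Hspb1 by 0.69 ± 0.20 (adjusted p = 0.00756). Dnajc25 and Hspe1 fell by 0.48 and 0.31 (adjusted p = 0.02 and 0.0231). Dnajc16, Dnajc27 and Hspb6 rose in both regions.

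From P21 to adulthood the regions differed in what was called. In the hippocampus Hspa8 ran from 13.24 to 14.23 (median 13.86) in adults and from 7.95 to 13.89 (median 13.15) at P21, a change of 1.29 ± 0.21 (adjusted p = 5.59e-06) that includes the low LR-LR arrays; it ran from 1.13 to 1.48 with 1 array left out. Dnaja4, a cytosolic HSP70 partner, changed by 1.16 ± 0.18 there (adjusted p = 1.12e-06) and by 0.45 ± 0.14 in the amygdala (adjusted p = 0.0182), the 1 member called higher in both regions. Hsp90aa1, Hsph1, Hsp90b1 and Hspa5 rose in the hippocampus by 0.67, 0.69, 0.55 and 0.51 (adjusted p = 3.79e-05, 0.0198, 0.0367 and 0.00527), and Hspbap1 fell by 0.58 (adjusted p = 0.00638). The 11 hippocampal calls became 7, 19 and 20 without LR-LR P21 replicates 2, 4 and 5, and the 5 calls of the first hippocampal step became 3 without LR-LR P14 replicate 1. After quantile normalization 5 members were higher and 3 lower in adults against P21. In the amygdala Hspa4 fell by 0.64 ± 0.12 (adjusted p = 4.46e-05), as did Dnajb11 and the Dnajc5 average by 0.47 each (adjusted p = 0.00219 and 8.34e-08). Dnajc5 did not fall in every rearing group. By the ranges given above, its adult arrays lay above all P21 arrays in LR-HR and HR animals. In LR-LR and LR animals its adult arrays lay below all P21 arrays.

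Across all rearing comparisons and ages, 40 of 51 members were called at least once in the amygdala and 6 of 53 in the hippocampus, against 60% and 7.69% of all transcripts, and the difference between regions was not tested. The 11 members never called in the amygdala were Dnaja3, Dnajb13, Dnajc12, Dnajc21, Dnajc22, Dnajc25, Dnajc5g, Hsp90aa1, Hspa14, Hspb6 and Hspbap1, taking Dnaja3 by its first row. In the steps between ages 32 amygdala and 24 hippocampal members were called at least once, against 42.5% and 35.2% of all transcripts.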

How the data were processed

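Amygdala and hippocampus RNA was hybridised to NimbleGen expression arrays, 1 array per sample. The deposited values are linear intensity values per transcript, and RMA is named in the submitters' processing notes; the regions were deposited as separate tables, so tests were kept within a region. Transcripts were named through RefSeq accessions (GRCr8 table, used for names and promoters only). Log2 was taken here without a pseudocount or filter. Each region and age (20 arrays, 4 rearing means) was fitted with limma 3.58.1 in R 4.3.3 (lmFit, eBayes), and age steps and the adult minus P14 difference were fitted over the 80 arrays of a region. Benjamini-Hochberg adjustment ran over all transcripts of a fit, with calls under 0.05; the script was tested on simulated data. The members and lists were chosen with earlier results of these data known. Named genes were a panel of well-known members plus, per comparison, the 2 called members with the largest rise and the 2 with the largest fall. Alternatives were quantile normalization, a filter above the median of all means, the replicate number as a block, and leaving out each array. Same-numbered arrays of both groups correlated above 0.1 for every number in 8 of 24 comparisons, and there the numbers were taken to pair the arrays.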

Additional observations from a re-analysis of the deposited data

Results flagged for a closer look

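Of 100 groups of 5 arrays tested, 5 held 1 array far from the other 4, and chance flags about 1 in 20 groups. All 5 lay in the amygdala at P14. The groups tested came from a list of chosen genes, regions and ages, and their number from this region and age was not counted. These were Hspe1 in LR-HR replicate 4 (11.85), Hspa8 in LR-HR replicate 4 (12.20), Hspa8 in HR replicate 1 (13.52), Hspd1 in LR replicate 4 (8.08) and Hsph1 in LR replicate 5 (11.38), all log2 intensities. LR-HR replicate 4 was the array for both Hspe1 and Hspa8.

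The foster comparison in the amygdala differed between adults and P14 by limma's test of the difference for 11 of the named members. Over all transcripts 25.5% were called higher and 12.9% lower in this test. Dnajc27 and Hspb2 are outside the panel and were listed here because their values in this same test were among the largest. The difference, adult minus P14 change, was 2.98 for Dnajc5, 2.24 for Dnajc27, 1.54 for Hspd1, 1.34 for Hspa8, 1.26 for Hsp90b1, 1.22 for Hsph1, 1.14 for Dnaja1, 0.79 for Hspa5 and 0.77 for Cct5. It was -1.15 for Hspe1 and -2.06 for Hspb2. Cct5 missed the threshold after quantile normalization (0.49, adjusted p = 0.124).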

How the results depend on the processing

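Among the named genes, no change called in the main fit or in an alternative reversed its sign. Counts of members called were compared by size only. With the replicate number as a block, members called were 18 for adults against P21 (main 11) and 8 for P14 against P07 (5) in the hippocampus, 1 (0) and 2 (1) for HR against LR hippocampus at P07 and P14, 7 (3) and 3 (1) for LR-HR against LR-LR hippocampus at P07 and P21, 1 (0) for LR-HR against LR-LR amygdala at P07 and 1 (0) for LR-LR against LR amygdala in adults; the block ended no call of a named gene. The filter gave 1 call in place of 0 in HR against LR amygdala at P07, LR-HR against LR-LR amygdala at P07 and LR-LR against LR amygdala in adults. Quantile normalization gave 6 calls (main 14) in HR against LR amygdala at P21, 6 (12) in adult LR-HR against LR-LR amygdala, 0 (1) in LR-HR against LR-LR hippocampus at P21 and 10 (5) for P14 against P07 in the hippocampus. The causes were not tested.

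Leaving out 1 array gave ranges of 0 to 1, 9 to 13, 8 to 22 and 7 to 15 calls for LR-HR against LR-LR amygdala at P07, P14, P21 and in adults, and 1 to 6 and 0 to 13 in the hippocampus at P07 and P21. For HR against LR they were 0 to 1, 6 to 15 and 7 to 15 in the amygdala at P07, P21 and in adults and 0 to 4 in the hippocampus at P14. For LR-LR against LR hippocampus they were 0 to 0 at P14 and 0 to 1 at P21, and for hippocampal steps 3 to 7 (P14 against P07) and 7 to 20 (adults against P21). Hippocampal levels of Hspb3, Cct6b and Cct8l2 near the random control limit what can be seen for them.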
